A study of Mus musculus with 6 samples.

Results

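The R-spondin family is described here as 9 mouse genes, chosen by name: the ligand genes Rspo1, Rspo2, Rspo3 and Rspo4, the receptor genes Lgr4, Lgr5 and Lgr6, and the ubiquitin ligase genes Znrf3 and Rnf43. All 9 are among the 24062 genes counted, and 8 of them were among the 15187 genes with enough reads for a test. Lgr6 was too low. RNA came from dissected heads of C57BL/6 embryos at embryonic day 8.5, with 2 libraries for each of 3 genotypes. Wild type is Prdm15 tm1a+/+, heterozygous is Prdm15 tm1a+/- and mutant is Prdm15 tm1a-/-, and no other allele or treatment is named. Prdm15 encodes a zinc finger protein, and tm1a by its designation is a knockout-first insertion allele. The protocol speaks of 2 heads per genotype and says nothing of litters, so each p-value measures the spread between these libraries, which may be technical in part.

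R-spondins are secreted proteins that raise the response of a cell to Wnt. ZNRF3 and RNF43 sit in the cell membrane and mark Frizzled and LRP6, the Wnt receptors, for removal; an R-spondin bound to LGR4, LGR5 or LGR6 takes these ligases away, and more Wnt receptor stays on the surface. Rnf43, Znrf3 and Lgr5 are themselves Wnt target genes in many tissues, and the dorsal neural tube and the tailbud are known sites of R-spondin expression. Rspo1 has been reported as a direct Prdm15 target in embryonic stem cells.

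Assigned reads numbered 29412227 to 40439234 per library. For wild-type replicate 2 and mutant replicate 1, the count file attached to each carries the title of the other in its name. Each file was therefore used under the title it carries, which is also the rule by which the members' counts were chosen. Each one matched the column of that title in the deposited RPKM table, with 0 genes differing in zero status. Taken relative to wild-type replicate 1, 100% of compared genes had a proportional value. The file of wild-type replicate 1 was the reference, so its own 100% was fixed in advance. With the 2 files left under the samples they are attached to, 0 of the 8 tested genes passed in any of the 3 comparisons by edgeR's quasi-likelihood test. Of these 8, 0, 0 and 1 had an unadjusted p under 0.05, against 318, 48 and 422 of all 15187 genes. No other tool was run on that assignment. Xist, the RNA that coats an inactive X chromosome, had high counts in wild-type replicate 2 and both mutant libraries (32299 to 47887) and few in the other 3 (8 to 11). Within a genotype Xist differed only between the wild-type libraries, so a term for high Xist in the fit is set by those. For mutant against wild type, such a term acts much like leaving out wild-type replicate 1. For heterozygous against wild type it acts much like leaving out wild-type replicate 2. Forebrain markers were present in the wild-type heads, at a summed 292 and 219 CPM (counts scaled to library size) over 8 genes. Otx2, the forebrain regulator in the series title, was lower in the mutants, with 42.5 and 24.9 CPM against 109 and 86.1 CPM in the wild-type heads (log2 fold change -1.53, SE 0.25, adjusted p = 0.00964). Whole-gene counts of Prdm15 did not check the genotype labels, at 26.5 to 35.1 CPM in all 6 libraries (log2 fold change -0.21 in mutant against wild type, SE 0.12, adjusted p = 0.221).

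The promoter of Rspo1, the ligand gene reported as a Prdm15 target, and that of Rnf43, the ligase gene that was higher in mutants, are shown as examples of a gene that fell and a gene that rose. They come from the RefSeq promoter table (GRCm38.p6), which matched 5 of the 9 members: Rspo1, Rspo4, Lgr4, Lgr6 and Rnf43. Each sequence runs 5′ to 3′ on the strand of the gene, from 250 bases before the annotated start to 50 after it. Rspo1 is on the plus strand at chr4:124986180-124986479 and Rnf43, here its upstream start, on the plus strand at chr11:87662837-87663136.
Rspo1: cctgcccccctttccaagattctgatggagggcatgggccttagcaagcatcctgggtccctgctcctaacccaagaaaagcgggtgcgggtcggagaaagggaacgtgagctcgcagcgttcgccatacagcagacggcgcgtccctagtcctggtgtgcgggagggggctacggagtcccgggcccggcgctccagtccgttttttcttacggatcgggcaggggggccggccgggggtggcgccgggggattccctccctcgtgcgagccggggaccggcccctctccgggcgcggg
Rnf43: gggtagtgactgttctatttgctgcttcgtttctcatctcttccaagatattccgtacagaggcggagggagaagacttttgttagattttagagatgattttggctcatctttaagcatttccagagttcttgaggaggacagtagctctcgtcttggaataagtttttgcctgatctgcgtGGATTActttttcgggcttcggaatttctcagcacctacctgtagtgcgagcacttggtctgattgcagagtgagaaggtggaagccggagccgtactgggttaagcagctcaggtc
The capitals mark the 1 match found. A search on both strands for CTTTGAT (a TCF/LEF motif, the factors that carry Wnt signals to DNA; ATCAAAG on the other strand) and TAATCC (an Otx2-type homeodomain motif; GGATTA on the other strand) gave the second motif in this Rnf43 promoter, beginning 67 bases before the start, and neither motif in the other 5 promoters of members. Neither motif contains the other. Of all 32851 promoters of the same length, 3.73% held the first and 7.06% the second. A match is a description of letters and no evidence of binding. The Rspo1 promoter is 69% G or C with 29 CpG, and that of Rspo4 71% with 31, against a median of 52.7% and 7 CpG over all promoters. The Rnf43 promoters are at 46.7% and 44.3%.

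The members are paralogs, so reads of one could in principle be counted for another. Between coding sequences (GENCODE M21), the 4 R-spondin genes were 61.5% to 66% identical over aligned bases. The longest run of identical bases was 14, shared by Rspo2 and Rspo3, and for the ligases it was 20. Both are printed because they are the longest shared stretches among the ligands and between the ligases.
Rspo2 and Rspo3: actatggaatgtgt
Znrf3 and Rnf43: tccaccttccgaagctccct
For the Lgr genes the longest run was 18 bases, between Lgr5 and Lgr6. The longest coding sequences held 265 codons for Rspo1, 243 for Rspo2, 277 for Rspo3 and 228 for Rspo4. Other annotated genes overlap Rspo1, Rspo3, Rspo4, Lgr5 and Rnf43. The strand setting of the counter was not given. Reads of the antisense partners of Rspo1, Rspo3 and Rspo4, which have no row of their own in the count files, therefore cannot be told from reads of the genes themselves. Rspo3 also overlaps Gm20276 on the same strand, which has no row either, so a strand setting could not separate their reads. The opposite-strand partner of Lgr5, the protein-coding gene A930009A15Rik, has its own row.

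In wild-type heads the levels per length, in RPKM (reads per kilobase of gene, scaled to library size, from the deposited table), spanned a wide range. Lgr4 was the highest member at 12.1 and 13.9 RPKM. Znrf3 followed at 4.15 and 4.36 RPKM, Rspo1 at 2.83 and 3.06 and Lgr5 at 1.55 and 1.79. Rspo3, Rspo4, Rspo2 and Rnf43 came next at means of 0.566, 0.559, 0.556 and 0.535 RPKM, and all their libraries lay within the range of Rspo3, 0.535 to 0.598 RPKM. Lgr6 was lowest, at 0.0938 and 0.0629 RPKM. So at this stage the wild-type head held mostly Rspo1 among the ligand RNAs, Lgr4 among the receptor RNAs and Znrf3 among the ligase RNAs.

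The comparison of mutant with wild-type heads concerns loss of normal Prdm15. These heads also differed in markers of other tissues, described below, so genotype and tissue content cannot be told apart in it. Rspo1 and Rspo2 fell, 5.34-fold and 9.54-fold, while Rspo3 rose 6.58-fold and Rnf43 rose 2.24-fold. Lgr4 was 1.34-fold lower, a small change. The calls of Lgr4 and Rnf43 were less stable, and both ended with a term for high Xist. Rspo4, Lgr5 and Znrf3 did not pass the test. In all, 5 of the 8 tested genes passed, 2 higher and 3 lower, in a comparison where 30.6% of 15187 genes passed, 17.1% as higher and 13.6% as lower. The members were picked by name, with earlier results of these data known, and are few, so this is a description. The test was the quasi-likelihood test of edgeR on counts, with p-values adjusted over all genes by the Benjamini-Hochberg method, and a gene passed at an adjusted p under 0.05. Adjusted p-values without a named tool come from it.

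Rspo1 (chromosome 4, 124986430 to 125009099, plus strand, GRCm38), known for its part in ovary development and active in the dorsal neural tube, had 214 and 197 reads in wild-type libraries, 305 and 139 in heterozygous ones and 30 and 36 in mutant ones. As CPM these were 5.18 and 5.6, 9.82 and 4.66, and 0.798 and 1.23. Both mutant libraries lay below every other library, and the heterozygous ones spread to either side of wild type. The log2 fold change of mutant against wild type was -2.42 (SE 0.42, adjusted p = 0.011). Without mutant replicate 1 it was -2.13 (SE 0.54) and no longer passed (adjusted p = 0.0676). With the files as attached it was 0.19 (SE 1.12).

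Rspo2 (chromosome 15, 43020794 to 43170826, minus strand), required for limb and lung development, was counted at 78 and 64 reads in wild-type, 19 and 21 in heterozygous and 9 and 4 in mutant libraries. These were 1.89 and 1.82, 0.612 and 0.704, and 0.239 and 0.136 CPM. The 3 genotypes did not overlap, with heterozygous heads between the homozygotes. The log2 fold change of mutant against wild type was -3.25 (SE 0.38, adjusted p = 0.00374). It passed on leaving out any single library (-3.72 to -2.94), though the mutant value rests on 9 and 4 reads.

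Rspo3 (chromosome 10, 29452416 to 29535867, minus strand), which is needed for the placenta and for blood vessels, went the other way. It had 59 and 45 reads in wild-type, 143 and 117 in heterozygous and 269 and 315 in mutant libraries, or 1.43 and 1.28, 4.6 and 3.92, and 7.16 and 10.7 CPM. Again the genotypes did not overlap and the heterozygous heads lay between. The log2 fold change of mutant against wild type was 2.72 (SE 0.26, adjusted p = 0.00197), and 2.39 to 2.99 on leaving out single libraries, with each of these passing. Rspo4 (chromosome 2, 151842927 to 151874668, plus strand), the nail-forming R-spondin gene, had 54 and 47 reads in wild-type, 17 and 33 in heterozygous and 20 and 27 in mutant libraries. Its log2 fold change of -0.87 (SE 0.46) did not pass (adjusted p = 0.199), although both mutant libraries (0.532 and 0.92 CPM) were below the wild-type ones (1.31 and 1.34 CPM).

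**Figure D1:**
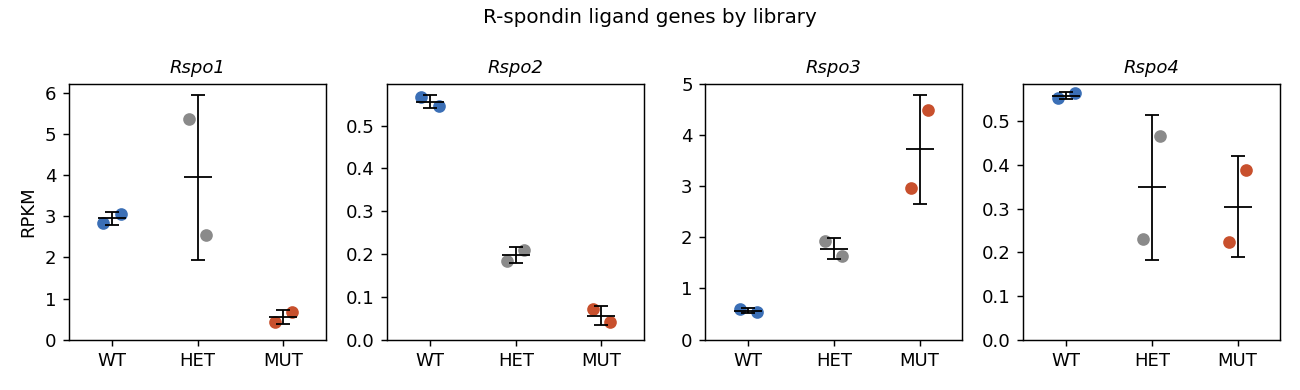
RPKM of the 4 R-spondin ligand genes (vertical axes, linear from 0, a scale for each gene) in wild-type (WT), heterozygous (HET) and mutant (MUT) heads. Points are the 2 libraries per genotype, black bars the mean ± SD. Rspo1 and Rspo2 are lowest and Rspo3 highest in both mutant libraries, and the heterozygous libraries lie between the homozygotes for Rspo2 and Rspo3 but not for Rspo1.

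Added up per length, the 4 ligand genes gave nearly the same total in mutant as in wild-type heads while the make-up turned over. Summed R-spondin levels were 4.55 and 4.7 RPKM in wild-type, 7.71 and 4.85 in heterozygous and 3.7 and 5.57 in mutant libraries, so wild type lay within the range of the mutants. Rspo1 made up 62.3% and 65% of that sum in wild-type, 69.6% and 52.3% in heterozygous, and 11.7% and 12% in mutant libraries. Rspo3 made up 13.1% and 11.4% in wild-type, 25% and 33.7% in heterozygous, and 80.3% in each mutant library. Put as a ratio of levels, Rspo3 over Rspo1 was 0.211 and 0.175 in wild-type, 0.359 and 0.644 in heterozygous and 6.86 and 6.7 in mutant heads. The share of Rspo2 was 12.5% and 11.6% in wild-type and 1.93% and 0.732% in mutant libraries. These shares were not tested, since an exact permutation test of 2 libraries against 2 cannot give a two-sided p below 0.333. They come from the same values as the fold changes above and are no separate support for them.

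**Figure D2:**
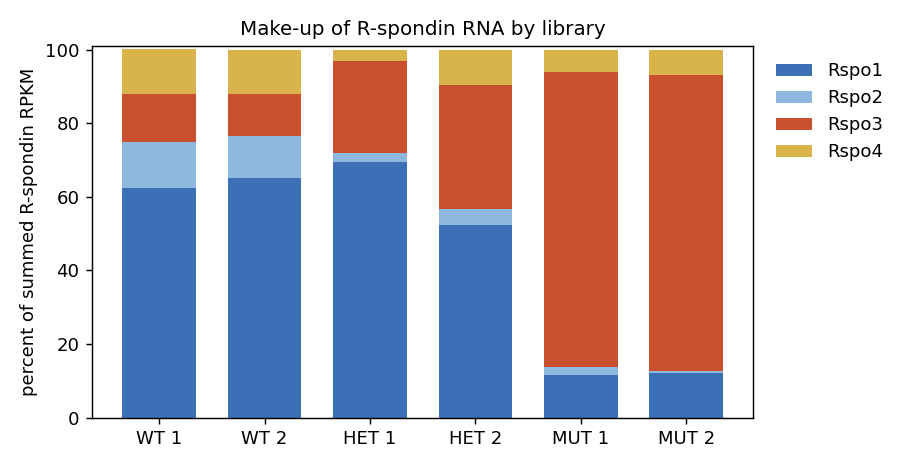
Share of each ligand gene (percent of the summed RPKM of Rspo1 to Rspo4, vertical axis) in each of the 6 libraries (horizontal axis). Rspo1 is the largest part in the 4 wild-type and heterozygous libraries, at 52.3% to 69.6%, and Rspo3 in both mutant libraries, at 80.3%.

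Among the receptors, Lgr4 (chromosome 2, 109917647 to 110014257, plus strand), the broadly expressed R-spondin receptor gene, measured 60.8 and 70.1 CPM (wild type), 61.5 and 50.8 CPM (heterozygous) and 50.5 and 46.8 CPM (mutant). The mutant libraries were the lowest, close to the second heterozygous one. Relative to all genes Lgr4 was lower in mutant than wild-type heads (log2 fold change -0.43, SE 0.12, adjusted p = 0.0442), but the sign turned to 0.29 (SE 0.17, adjusted p = 0.141) when libraries were scaled to 10 neural progenitor genes. That scaling moved the median of all genes from -0.02 to 0.70, so against that median Lgr4 stayed low. The call ended on leaving out wild-type replicate 1, wild-type replicate 2, mutant replicate 1 or mutant replicate 2 (adjusted p of 0.0631, 0.134, 0.114 and 0.16). It also ended with a term for high Xist (adjusted p = 0.0591) and by limma on log2(RPKM + 1) (adjusted p = 0.0508). The Xist term is close to leaving out wild-type replicate 1 and is no separate check from it. Lgr5 (chromosome 10, 115450311 to 115587780, minus strand), the marker gene of intestinal stem cells, measured 7.26 and 8.42 CPM (wild type), 6.67 and 4.69 CPM (heterozygous) and 7.77 and 9.26 CPM (mutant). Wild type and mutant overlapped, and the log2 difference of 0.12 (SE 0.21, adjusted p = 0.706) did not pass. Scaled to neural progenitors it passed as higher, at 0.83 (adjusted p = 0.014), near the shifted median of 0.70, and 6 of the 8 members passed in all. Under that scaling 11342 of all 15187 genes tested passed as well. Lgr6 (chromosome 1, 134983301 to 135105276, minus strand) had 14 and 8, 3 and 7, and 9 and 2 reads in wild-type, heterozygous and mutant libraries, too few for a difference of the size seen in the ligands to be judged. Of the summed receptor RPKM, Lgr4 made up 88% and 88.2% in wild-type and 85.3% and 82.3% in mutant heads.

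Of the ligases, Znrf3 (chromosome 11, 5276324 to 5444847, minus strand) was the steadier one. Wild-type libraries had 29.8 and 31.3 CPM, heterozygous ones 27.6 and 28.1 and mutant ones 26.6 and 30.6. The mutant and wild-type ranges overlapped, with a log2 fold change of -0.10 (SE 0.09, adjusted p = 0.461), turning to 0.62 (adjusted p = 0.00182) under neural progenitor scaling, where the median of all genes was 0.70. Rnf43 (chromosome 11, 87662722 to 87735539, plus strand) had 2.3 CPM in each wild-type library, 3.64 and 2.68 CPM in heterozygous and 4.12 and 6.2 CPM in mutant ones, with no overlap between genotypes. Its log2 fold change of mutant against wild type was 1.16 (SE 0.28, adjusted p = 0.0282). The call ended without wild-type replicate 1, wild-type replicate 2 or mutant replicate 2 (log2 fold changes of 1.17, 1.15 and 0.83). It also ended with a term for high Xist (adjusted p = 0.103), which is close to leaving out wild-type replicate 1. Znrf3 RNA exceeded Rnf43 RNA 7.76 and 8.14 times per length in wild-type and 3.87 and 2.95 times in mutant heads.

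**Figure D3:**
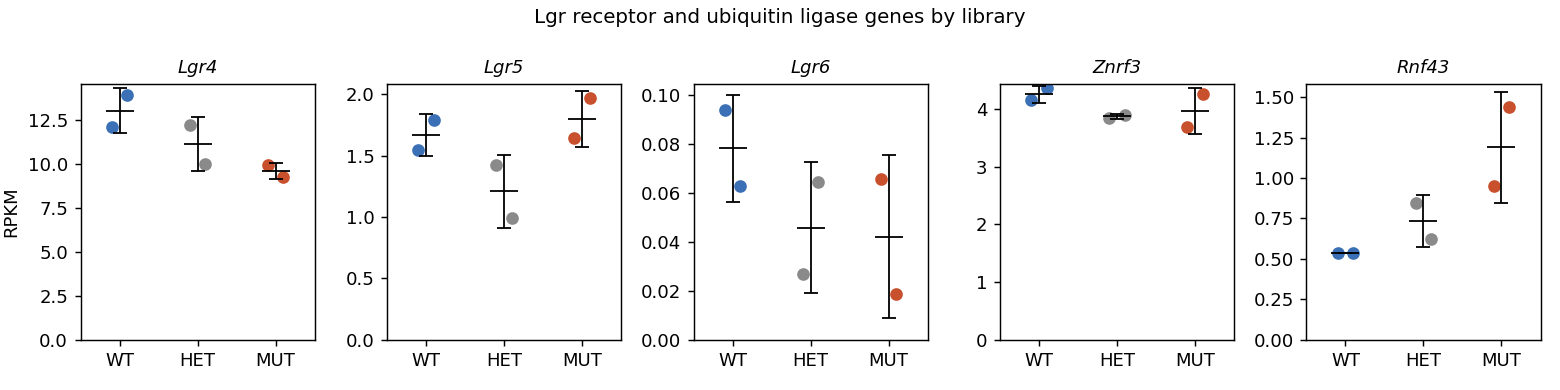
RPKM of the receptor genes Lgr4, Lgr5 and Lgr6 and the ligase genes Znrf3 and Rnf43 (vertical axes, linear from 0, a scale for each gene) by genotype, drawn as points for the 2 libraries with the mean ± SD. Znrf3 and Lgr5 overlap between wild type and mutant, Rnf43 is higher and Lgr4 lower in the mutant libraries, and Lgr6 is under 0.1 RPKM throughout.

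In the authors' deposited table, the log2 fold changes of mutant against wild type are -2.43 for Rspo1, -3.26 for Rspo2 and 2.71 for Rspo3, with false discovery rates of 1.39e-05, 1.99e-05 and 6.32e-09. In that authors' deposited table Lgr4 has a rate of 0.0385, under 0.05, and Rnf43 one of 0.0639, above it. The other members have rates of 0.461 (Rspo4), 1 (Lgr5), 0.702 (Lgr6) and 0.939 (Znrf3) in the authors' deposited table.

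The second comparison concerns a single tm1a allele. Markers of yolk sac visceral endoderm and heart were also higher in the heterozygous libraries, so allele and tissue content cannot be told apart in it. In heterozygous against wild-type heads Rspo3 was the member that passed, 3.14-fold higher (log2 fold change 1.65, SE 0.26, adjusted p = 0.0227). That is 1 of 8 tested members, in a comparison where 6.56% of all genes passed, 6.03% as higher and 0.533% as lower. The Rspo3 call ended on leaving out either wild-type or either heterozygous library (adjusted p of 0.0711 and 0.0819 without wild-type replicate 1 and 2, 0.118 and 0.0574 without heterozygous replicate 1 and 2) and with a term for high Xist (adjusted p = 0.104), while the value stayed between 1.53 and 1.76. By limma on log2(RPKM + 1) Rspo3 did not pass either (0.83, adjusted p = 0.0536). Rspo2 was at -1.49 (SE 0.34, adjusted p = 0.0639), short of the threshold although the 2 groups did not overlap. By limma on log2(RPKM + 1) and log2(RPKM + 0.1), Rspo2 passed as lower (adjusted p = 0.0281 and 0.0454), on scales that shrink the change of low genes, so the 1 member that passed on the first of these scales was Rspo2 and not Rspo3. Rspo1 stood at 0.43 (SE 0.38, adjusted p = 0.545), with heterozygous replicate 1 above and replicate 2 below both wild-type libraries; without replicate 1 the value was -0.21. Rspo4 (-0.68), Lgr4 (-0.22), Lgr5 (-0.46), Znrf3 (-0.13) and Rnf43 (0.46) did not pass, with adjusted p between 0.263 and 0.417.

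The third comparison sets mutant against heterozygous heads. Both mutant libraries had high Xist counts and both heterozygous ones few, so genotype and high Xist cannot be told apart between these groups. By edgeR's quasi-likelihood test 0 of 8 tested members passed, and 5 had an unadjusted p under 0.05; DESeq2 passed 2, Rspo1 and Rspo3, and limma on log2 RPKM passed 0. Few genes passed edgeR's test at all here, 0.435% of those tested, 0.0724% as higher and 0.362% as lower. Of all 15187 genes, 3228 had an unadjusted p under 0.05 by that test, and DESeq2 passed 1313. The difference for Rspo1 was nevertheless large, at -2.84 (SE 0.43, adjusted p = 0.0676; DESeq2 adjusted p = 6.09e-07), and both mutant libraries were under both heterozygous ones. Rspo2 was at -1.76 (SE 0.39, adjusted p = 0.102) and Rspo3 at 1.07 (SE 0.25, adjusted p = 0.104; DESeq2 adjusted p = 0.0163). Lgr5 was at 0.58 (SE 0.22, adjusted p = 0.207) and Rnf43 at 0.70 (SE 0.28, adjusted p = 0.225). Since the 3 comparisons share libraries, their values are set side by side and not counted as separate evidence. Rspo2 and Rspo3 had their heterozygous level between the homozygotes, while Rspo1 was at 4.66 CPM or more in the heterozygous libraries and at 1.23 CPM or less in the mutant ones.

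**Figure D4:**
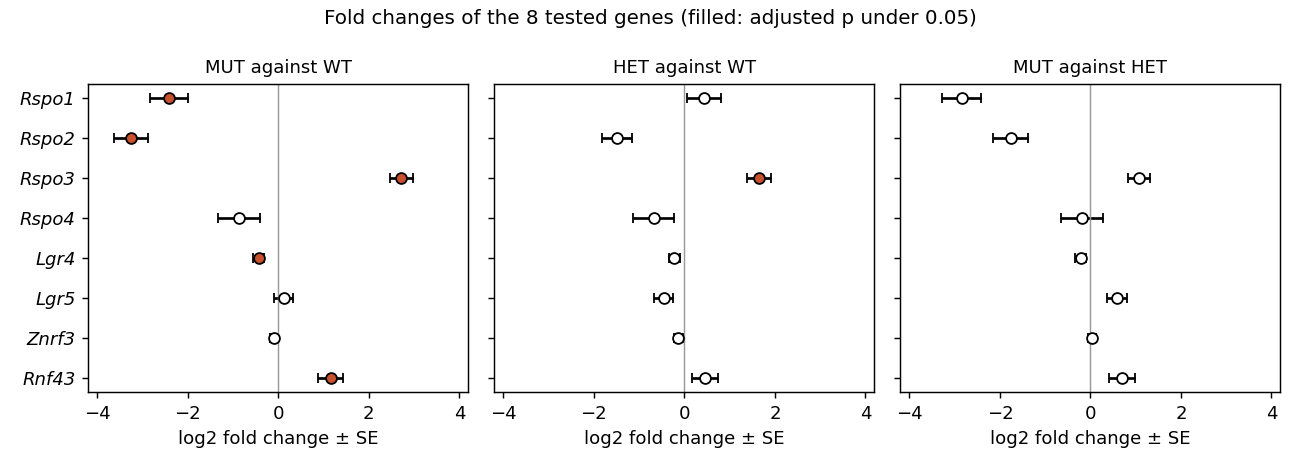
Log2 fold changes (horizontal axes, points) with standard errors (bars) of the 8 tested members in each of the 3 comparisons, filled where the adjusted p was under 0.05. In mutant against wild type 5 are filled, Rspo3 and Rnf43 to the right and Rspo1, Rspo2 and Lgr4 to the left; Rspo3 alone is filled in heterozygous against wild type and none in mutant against heterozygous.

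Markers of several other tissues moved along with the ligands. The marker lists were chosen with earlier results of these data known, so their counts are descriptions. Over all genes 17.1% passed as higher in mutant against wild type and 6.03% in heterozygous against wild type. Fewer cells of a type and less RNA per cell cannot be told apart in these bulk libraries. Of 13 yolk sac visceral endoderm markers, 13 rose in mutant against wild type and 13 in heterozygous against wild type; their summed level was 8.7 and 16.6 CPM in wild-type, 2710 and 1950 in heterozygous and 5050 and 4260 in mutant libraries. Of 5 tested extraembryonic mesoderm and allantois markers 5 rose in mutant heads and 3 in heterozygous ones, with sums of 89.6 and 94, 272 and 245, and 628 and 424 CPM. Trunk and tailbud markers, of which 5 of 10 tested rose in mutants and 1 in heterozygotes, summed to 16.8 and 17.2, 30.3 and 23.9, and 56.6 and 189 CPM. Of 9 tested heart markers, 9 rose in mutants and 8 in heterozygotes, with sums of 159 and 27.5, 1470 and 2230, and 1550 and 898 CPM. Head mesenchyme markers, of which 5 of 8 rose in mutants, summed to 332 and 357, 441 and 433, and 471 and 551 CPM. Surface ectoderm markers, of which 2 of 7 rose and 1 fell in mutants, summed to 365 and 372, 694 and 539, and 1050 and 898 CPM. The sums of each of these lists other than heart had the order of genotypes seen for Rspo3, without overlap. No marker of these 6 lists was at 0 in both wild-type libraries. Endothelium markers, of which 2 of 9 rose in mutants, summed to 249 and 357, 313 and 354, and 388 and 360 CPM. The wild-type and heterozygous sums of that list overlapped. Of 7 erythroid markers 0 rose and 1 fell in mutants, with sums of 168 and 248, 8.23 and 237, and 33.1 and 14.9 CPM. The part of any of these tissues in the Rspo3 and Rnf43 differences was not tested.

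Markers of the tissue where Rspo1 is known to act moved as well. Over all genes 13.6% passed as lower and 17.1% as higher in mutant against wild type. Of 11 dorsal neural tube markers 8 fell and 2 rose in mutant against wild type (median log2 fold change -1.17, against -0.02 over all genes), with summed levels of 343 and 236 CPM in wild-type, 239 and 264 in heterozygous and 243 and 211 in mutant libraries. Of 8 forebrain markers 7 fell and 0 rose (median -2.39), with sums of 292 and 219, 165 and 189, and 78.2 and 43.3 CPM. Of 10 neural progenitor markers 8 fell and 0 rose (median -0.84), with sums of 984 and 992, 768 and 872, and 551 and 606 CPM. Of 7 neural crest markers 5 fell and 1 rose (median -1.48). The part of these lists in the Rspo1 and Rspo2 differences was not tested, and the scaling that follows cannot decide it. Scaled to the progenitor list, Rspo1 and Rspo2 were lower in mutant against wild type, at -1.71 (adjusted p = 0.00707) and -2.54 (adjusted p = 0.00134). Rspo3 and Rnf43 were at 3.43 (adjusted p = 0.000123) and 1.87 (adjusted p = 0.00101). That scaling shifts all genes by about the same amount, and the median of all genes moved from -0.02 to 0.70. A gene that was higher before could therefore only stay higher under it. Over all genes that scaling gave 10932 higher and 410 lower in place of 2594 and 2060 for mutant against wild type, and 8340 and 199 in place of 11 and 55 for mutant against heterozygous. With a term for high Xist, Rspo1, Rspo2 and Rspo3 passed in mutant against wild type as before, at -2.48, -3.22 and 2.80. Leaving out wild-type replicate 1 gave -2.46, -3.21 and 2.81. The Xist term is set by the wild-type libraries and is no separate check from that fit. Decidual markers, from maternal tissue, summed to 10.3 and 401, 24.5 and 42.5, and 47.1 and 139 CPM in wild-type, heterozygous and mutant libraries, and their part was not tested.

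The other genes of the pathway came from lists chosen by role. The shares to set beside the counts of these lists are those over all genes. In mutant against wild type 17.1% of all genes passed as higher and 13.6% as lower. Of 13 tested canonical Wnt ligand genes, 3 rose and 4 fell in mutant against wild type (median log2 fold change -0.16). Wnt2b and Wnt2 rose by 1.51 (SE 0.18) and 4.14 (SE 0.84), and Wnt9b and Wnt8b changed by -2.18 (SE 0.37) and -3.20 (SE 0.63), with adjusted p between 0.00387 and 0.0169. Wnt1 and Wnt3a, ligands of the dorsal midline, fell by 1.77 (adjusted p = 0.0496) and 1.93 (adjusted p = 0.0181) on the log2 scale; these 2 were named after their values were seen. Wnt2 was low in the wild-type head, at 3.82 and 0.284 CPM against 45.6 and 28.7 in mutants.

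Of the 12 Frizzled and Lrp genes, which encode the receptors that ZNRF3 and RNF43 remove, 2 rose and 3 fell (median -0.11). Over all genes 17.1% passed as higher and 13.6% as lower. Fzd4 rose from 18.7 and 18.1 to 54.5 and 48.5 CPM (log2 fold change 1.48, SE 0.09, adjusted p = 0.000528), as it did in heterozygous heads (1.08, adjusted p = 0.00323). The co-receptor gene Lrp5 rose by 0.67 (SE 0.08, adjusted p = 0.004), while Fzd3 changed by -1.22 (SE 0.14, adjusted p = 0.0038) and Fzd9 fell from 9.85 and 10.8 to 5.61 and 4.7 CPM (adjusted p = 0.0164). Of 17 genes that pass the signal on inside the cell, 1 rose and 4 fell (median 0.02). Of those with the smallest p, 3 changed little: Gsk3b by -0.32 (SE 0.04), Ctnnb1, which encodes beta-catenin, by -0.32 (SE 0.05) and Csnk1a1 by -0.24 (SE 0.04), each of which turned positive (0.40, 0.40 and 0.48) under neural progenitor scaling while staying below the shifted median of 0.70. Bcl9l, a beta-catenin partner, rose by 0.77 (SE 0.13, adjusted p = 0.00976).

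Among 8 feedback targets of Wnt signalling 5 fell and 0 rose (median -0.51), the list with the lowest median of the 6. Axin2, the most used readout of the pathway, measured 132 and 134 CPM (wild type), 97.9 and 115 CPM (heterozygous) and 81.3 and 89.3 CPM (mutant), without overlap, with a log2 fold change of -0.64 (SE 0.09, adjusted p = 0.00594) that became 0.08 under neural progenitor scaling. Nkd1 was at -0.65 (SE 0.12), Nkd2 at -1.20 (SE 0.23) and Apcdd1 at -1.38 (SE 0.28). Under that scaling they were at 0.07, -0.49 and -0.66, and all 4 were below the shifted median of 0.70. In heterozygous heads the median of these 8 genes was -0.42, with none of the named ones passing (adjusted p of 0.0981 to 0.274). Of 12 tested secreted Wnt inhibitor genes 3 rose and 3 fell (median -0.15). Sfrp5 rose in mutant (2.86, SE 0.22, adjusted p = 0.00105) and heterozygous heads (2.73, adjusted p = 0.00326), Dkk2 rose in mutants by 1.58 (SE 0.35), and Sfrp2 and Sfrp1 changed by -0.96 (SE 0.15) and -0.51 (SE 0.09), the last turning to 0.20 under neural progenitor scaling.

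**Figure D5:**
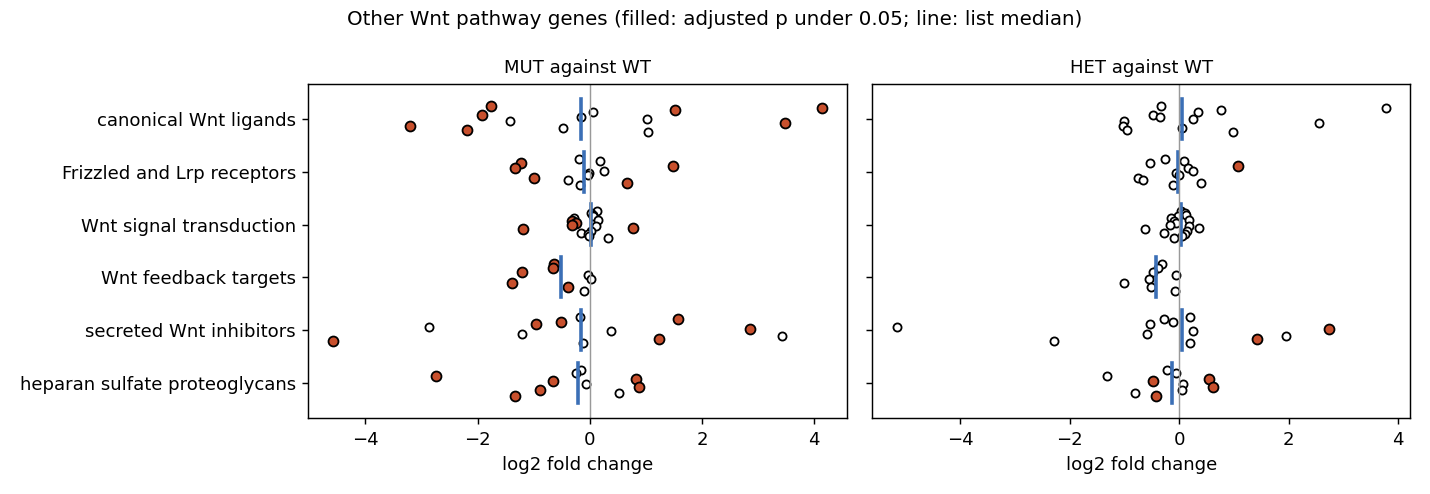
Log2 fold change (horizontal axes) of each tested gene in 6 lists of other Wnt pathway genes (rows), for mutant against wild type and heterozygous against wild type. Points are genes, filled where the adjusted p was under 0.05, and blue lines are list medians, the lowest of which is that of the feedback targets at -0.51 in mutants.

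Genes were also ranked by how closely their log2 CPM followed that of each ligand gene over the 6 libraries, among about 12554 genes with a mean of at least 1 CPM. The correlations are the highest of many, over 3 genotypes with 2 libraries each, so they describe a shared order of libraries and carry no test. Closest to Rspo1 was Sox3, a gene of neural progenitors (Pearson's r 0.995), with 66.3 and 66 CPM (wild type), 74.3 and 62 CPM (heterozygous) and 46.4 and 50.8 CPM (mutant), followed by Mtrf1 (0.99) and Stmn3 (0.99). Sox3 shares with Rspo1 the high first heterozygous library. Among the genes closest to Rspo2 were Zfp365 (0.998) and Slc6a11 (0.998). Closest to Rspo3 were Dgka (0.998), Romo1 (0.997) and Itga3 (0.996), the last an integrin gene at 75.7 and 72.1, 95.7 and 90.1, and 102 and 114 CPM. Closest to Rspo4 were Arglu1 (0.992), Gid8 (0.988) and Shf (0.985).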

How the data were processed

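Per the submitters' processing notes, the tools included TopHat2 2.0.11, edgeR 3.8.6, Trim Galore 0.4.0, HTSeq 0.6.1p2 and cutadapt 1.8, and the build was mm10, with annotation and strand setting not given in the sources used here. The authors deposited raw counts per gene symbol (24062 genes, with 5 summary lines left out of sizes and tests: 8.93% to 10.5% of read pairs in no feature, 1.04% to 1.08% ambiguous, 12.7% to 14.5% not unique). They also deposited a table with RPKM per library and, for mutant against wild type, log2 fold changes and p-values adjusted as false discovery rates.

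Count files were taken by the title in their names and tested with edgeR 4.0.16 in R 4.3.3 (glmQLFit, glmQLFTest, TMM, filterByExpr, all 6 libraries, 3 residual degrees of freedom), with Benjamini-Hochberg adjustment over 15187 genes at 0.05. A standard error is the size of the fitted log2 fold change divided by root F. CPM of genes use TMM sizes, sums over lists library totals. Alternatives used DESeq2 1.42.0 and limma 3.58.1, other scalings and filters, a term for Xist above 1000 counts and single libraries left out, in which case a lone library is assumed to vary like the others. The fit was tested on simulated data. The labels give no replicate numbers to pair. Members and lists were chosen with earlier results of these data known. Named genes are the 9 members, up to 4 genes with the smallest p of each pathway list, Otx2 and Prdm15, and the 3 genes most like each ligand gene. Not every gene this rule names is reported here. Positions are from GENCODE M21 (GRCm38, the assembly of mm10).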

Additional observations from a re-analysis of the deposited data

How the results depend on the processing

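The number of members that passed in mutant against wild type, 5, became 0 with the files as attached and 3 with a term for high Xist, and was 3 to 5 on leaving out single libraries (3 without any 1 wild-type or mutant library). In heterozygous against wild type, 1 became 0 with the files as attached and with the Xist term, 2 by limma on log2(RPKM + 0.1), and 0 to 1 without single libraries. In mutant against heterozygous, 0 became 2 by DESeq2, 1 without a filter on low counts (Rspo1, adjusted p = 0.036) and 6 scaled to neural progenitors. Over all genes the passing numbers of 4654, 997 and 66 were 0, 0 and 0 as attached, 2500, 516 and 4 with the Xist term, 11342, 1983 and 8539 under neural progenitor scaling, and 5074, 1890 and 1313 by DESeq2; without a filter mutant against heterozygous gave 182, and with the 2 groups alone 106. On leaving out single libraries they ranged from 1997 to 4265, 313 to 748 and 11 to 81. The cause was not tested, apart from the exchange of 2 files and the fewer libraries that those alternatives consist of.

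Signs turned as follows. With the files as attached, mutant against wild type gave 0.19 for Rspo1, 0.29 for Rspo4, 0.07 for Lgr4 and 0.13 for Znrf3; heterozygous against wild type gave -0.01 for Rspo3, 0.01 for Lgr4 and -0.02 for Rnf43; and mutant against heterozygous gave 0.58 for Rspo2, 0.45 for Rspo4 and 0.06 for Lgr4. Scaled to neural progenitors, Lgr4 was at 0.29, 0.04 and 0.26 in the 3 comparisons, Znrf3 at 0.62 and 0.11 in the first 2 and Rspo4 at 0.29 in the third. With the Xist term Znrf3 was at -0.03 in mutant against heterozygous. Leaving out single libraries, mutant against wild type ranged from -0.02 to 0.25 for Lgr5 and from -0.21 to 0.01 for Znrf3, heterozygous against wild type from -0.21 to 0.87 for Rspo1, and mutant against heterozygous from -0.64 to 0.39 for Rspo4 and from -0.07 to 0.14 for Znrf3. Of 120 values per comparison over members and alternatives, 97, 106 and 102 kept their direction and side of the threshold. Low counts limit Rspo2 in mutants (9 and 4 reads) and Lgr6 (2 to 14 reads).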

Other observations

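Heparan sulfate proteoglycans, cell-surface proteins that can also bind R-spondins, changed in both directions. Of 10 such genes 2 rose and 4 fell in mutant against wild type (median log2 fold change -0.21, against -0.02 over all genes), and 2 rose and 2 fell in heterozygous against wild type. Over all genes 17.1% passed as higher and 13.6% as lower in the first comparison, and 6.03% and 0.533% in the second. Gpc3 measured 335 and 334 CPM (wild type), 537 and 494 CPM (heterozygous) and 608 and 621 CPM (mutant), a log2 fold change of 0.88 (SE 0.06, adjusted p = 0.000654 by edgeR's quasi-likelihood test) in mutants. Sdc4 rose by 0.83 (SE 0.07, adjusted p = 0.00137). Gpc6 went the other way, from 57.3 and 57.4 to 39.8 and 45.3 and to 22.9 and 22.8 CPM, and it passed in all 3 comparisons, at -1.33 (adjusted p = 0.000646), -0.43 (adjusted p = 0.0389) and -0.90 (adjusted p = 0.023). Gpc1 was at -0.66 (SE 0.07, adjusted p = 0.0023) in mutants and at 0.06 under neural progenitor scaling. In all 4 genes the heterozygous libraries lay between the homozygous ones. Yolk sac and allantois marker sums had the same order of genotypes, and their part was not tested.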
